A study of Mus musculus with 8 samples.

Results

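Voltage-gated sodium, voltage-gated calcium and hyperpolarization-activated (HCN) channel genes were examined in medial prefrontal cortex (mPFC) from 8 males of the inbred mouse strain C3H/HeN (C3H/Hen in the labels). The genes were taken by name from the annotation of an expression microarray, as Scn genes ending in a or b, Cacna, Cacnb and Cacng genes, and Hcn genes. Those described are 40 of the 34797 genes on the array, measured by 62 probes of 60 bases. In the MS group, 4 mice had been exposed as pups to maternal separation from postnatal day 2 to 14, together with chronic unpredictable stress of the dam. In the Control group, 4 mice had not. Weaning was at postnatal day 21 in both groups. Both also went through operant tests for palatable food as adults and were fasted before tissue was taken. The study reports more lever presses for the food by MS than by Control males of this strain in some tests. It names the fast and a differing exposure to the food as possible influences on expression in the nucleus accumbens. The comparison addresses a lasting mark of this early stress on mPFC gene expression, which cannot be told apart from such a difference in exposure. Whole tissue was used, so fewer cells of a type and less RNA per cell cannot be told apart. Each mouse is named by its group and its label number.

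These channels set how a neuron fires. Sodium channel alpha subunits carry the current of the action potential, and their beta subunits modify gating and act as adhesion proteins. A calcium channel has a pore-forming alpha1 subunit of the Cav1 (L-type), Cav2 (P/Q-, N- and R-type) or Cav3 (T-type) class. Cytoplasmic beta and extracellular alpha2delta subunits bring Cav1 and Cav2 channels to the membrane. Most gamma genes of the Cacng family encode transmembrane AMPA receptor regulatory proteins (TARPs), which accompany glutamate receptors rather than calcium channels. HCN channels open on hyperpolarization and pass a cation current that dampens the dendrites of cortical pyramidal neurons, and Hcn2 is among the subunits of the brain.

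Of the 40 channel genes, 36 could be tested. None of these was called, and the MS and Control values overlapped in each. The 4 calcium channel beta subunit genes each had a higher mean in MS mice when all mice were used, within the spread between mice, with Cacnb2 at a log2 fold change of 0.23 (SE 0.10) and at -0.01 in its second tested probe. The value of Cacnb4 was -0.004 without 3 mice of high olfactory bulb markers (Control 8.4, Control 8.5 and MS 7.6). That setting was chosen after seeing the data. The values of Cacnb1 and Cacnb3 moved by over 1.5 times without Control 8.4. Cacng5 and Cacna1s varied between mice along with olfactory bulb markers, and Scn4b stood apart in Control 8.4. Probes of the same gene often gave signals far apart.

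Values below are log2 processed spot signals from which the 75th percentile of that array was subtracted, so that 0 is a probe as bright as the percentile. They are called signals here. For each gene the brightest of its probes was used. The signal of a probe also depends on its sequence, so an order of genes is an order of probe signals and not of transcript amounts. The probes on which the results turn are given first, as the first 30 of their 60 bases, 5′ to 3′ in lower case, to show what was measured for Cacnb2 and Hcn2, for the genes that varied most between mice, and for genes whose probes disagreed. Coordinates are those of the whole probe on build mm9, with the strand given by the order of the coordinates in the array annotation. Those of the second Cacnb2 probe span more bases than the probe itself has. That strand was the strand of the gene for 45 of the 45 probes whose gene is in the RefSeq promoter table of GRCm38.p6. Whether a probe lies in an exon, intron or UTR was not analysed here.
Cacnb2, probe A_51_P283300, chr2:14907912-14907971, plus strand: tcaaaagctgtttgggtagctgccatctca
Cacnb2, probe A_52_P209514, chr2:14882385-14885558, plus strand: aacagagagccaagcaagggaaattctatt
Hcn2, probe A_55_P2088202, chr10:79198412-79198471, plus strand: tgcgcccggctgtccccccatcgccctgcg
Hcn2, probe A_55_P2088203, chr10:79198592-79198651, plus strand: agaatatggatcaagtgcaatactcggccc
Cacng5, probe A_52_P86353, chr11:107736263-107736322, minus strand: aacttttgtcaatgttattaacacctgtga
Cacna1s, probe A_51_P103541, chr1:138016020-138016079, plus strand: cacaaaggcctgatcggtgccagggtctgt
Cacna1s, probe A_55_P2169923, chr1:138015618-138015677, plus strand: cagatggaaccagaggaagtcgaggtggca
Cacng2, probe A_55_P1972172, chr15:77825290-77825349, minus strand: ccacaggctatgcggggggaaaatataacc
Cacng2, probe A_52_P539692, chr15:77825180-77825239, minus strand: catgtaccattattttaacatttaataaaa
Cacna1h, probe A_55_P1986596, chr17:25511235-25511294, minus strand: caaagctaaggggaggggaggggcaaagca
Cacna1h, probe A_52_P588378, chr17:25568825-25568884, minus strand: tctctaccttgtgtgtttaactgtataaat
Cacna1h, probe A_55_P1986591, chr17:25569818-25569877, minus strand: cttcttctgcctcgggcaaaccacgcggcc

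The 75th percentile itself lay between 588 and 892 on the 8 arrays, 61.5% to 68.9% of probes were well above background, and 0 spots were saturated. The number of arrays limits the precision. The cortical excitatory neuron markers (Slc17a7, Neurod6, Tbr1, Emx1 and Nrn1) were well above background on all 8 arrays, as 5 of 5. Control 8.4 stood apart. Its median correlation with the other arrays was 0.987, against at least 0.993 for each of the others. Its cortical score, the mean over the list of each marker's signal minus its mean over the 8 arrays, was the lowest at -0.40. Tbr1 alone of that list was not lowest in this mouse. The striatal projection neuron score of Control 8.4 was the highest at 1.41, with the others between -0.34 and -0.07. For olfactory bulb markers, Control 8.4 scored 3.07, MS 7.6 scored 1.82 and Control 8.5 scored 1.15, while the other 5 mice lay between -1.39 and -0.83. Without Control 8.4, 30 of the 36 fold changes of the tested members moved by more than 1.5 times or changed sign, and the value without that mouse is given for most members named below. Many fold changes lie near 0, where a small shift meets that criterion, and the count was made for Control 8.4 only. Some members also moved so without another mouse. Without Control 8.5, Cacna1b went from 0.19 to 0.35 and Scn3b from -0.06 to 0.05. Control 8.4 was the highest or the lowest of the 8 mice in 25 of the 36 tested members (69.4%), as it was in 50.9% of all tested genes.

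Most channel genes were well above background, some of them at a dim signal. The 35 members that were well above background on all 8 arrays included every Cav1, Cav2, Cav3, alpha2delta and Cav beta gene and the sodium channel beta genes Scn2b, Scn3b and Scn4b. Scn7a, a sodium-sensing channel, was above background in 3 Control and 3 MS mice, and Scn10a, a channel of sensory neurons, in 4 Control and 2 MS mice. Cacng1, Hcn4 and Scn9a were not above background in any mouse. The filter required all 4 arrays of at least 1 group, which left 36 members to test, Scn10a among them through its Control values alone.

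The brightest probes were those of Scn2b (mean signal 5.03), Hcn2 (4.44), Cacng7 (4.14), Cacna2d1 (3.73), Cacnb3 (3.56), Cacna1i (3.46) and Scn3b (3.33). In all, 20 members lay above the 75th percentile of the array and 20 below it. The dimmest members that were above background on every array were Cacna1c at -4.31 and Cacna1b at -4.05, which encode pore subunits of L-type and N-type channels. Of the 39 neighbouring pairs in this order, 14 differed by more than the larger of their SDs over the 8 mice and 25 did not. In the run from Scn1a (2.78) to Scn3a (2.15), seen in the plot of signals by gene, neighbours did not differ beyond their SD except Cacnb4 and Cacna2d3. Scn2a1, the older symbol of Scn2a and the gene of another major cortical sodium channel, is not caught by the naming rule. Its mean was 4.49 ± 0.17 for Control and 4.55 ± 0.07 for MS (SD, n = 4 each).

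**Figure D1:**
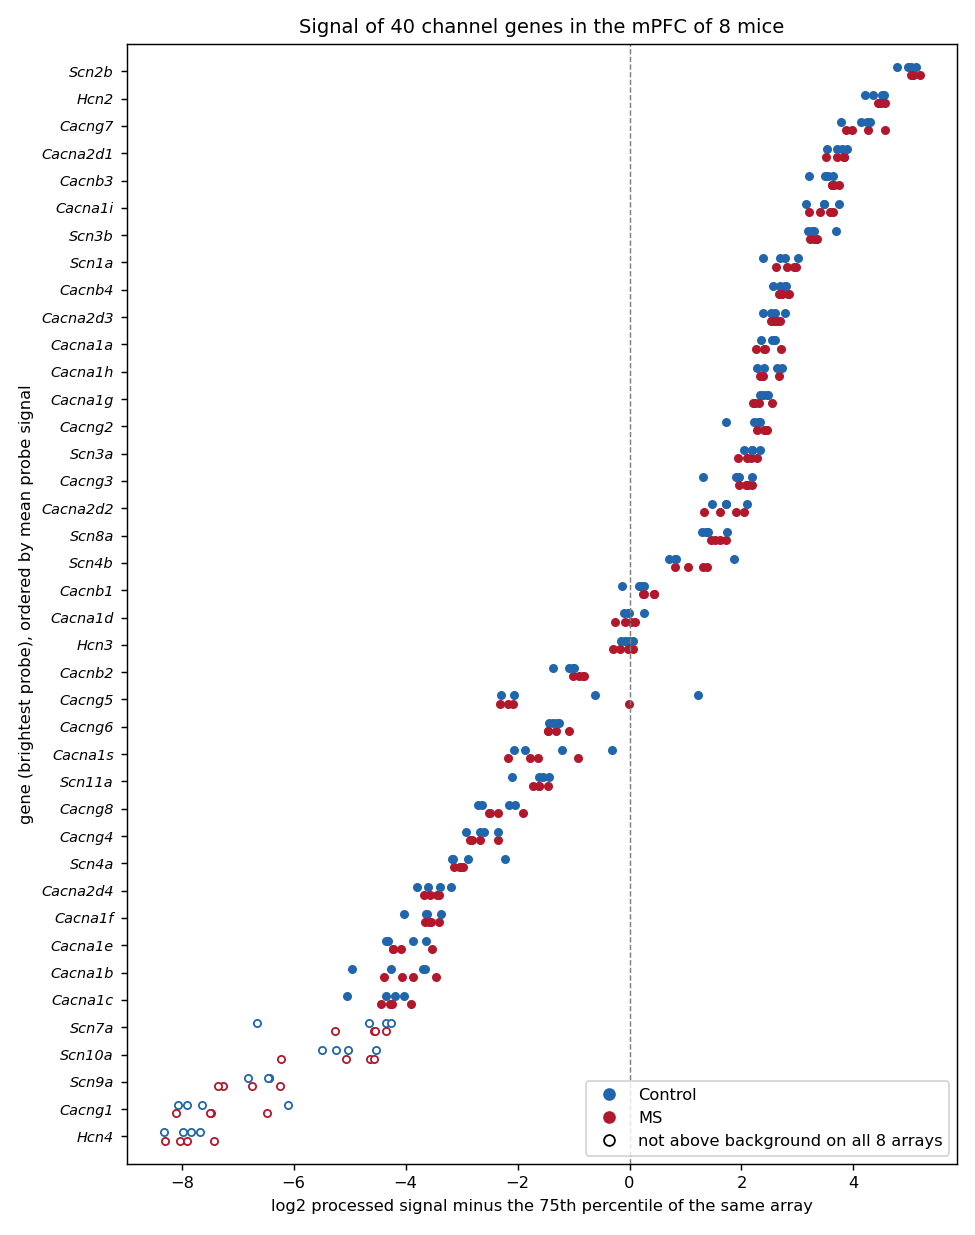
Signal of the brightest probe of each of the 40 channel genes in 4 Control (blue) and 4 MS (red) mice, as log2 processed signal minus the array's 75th percentile (x axis), with genes ordered by mean signal (y axis) and open circles for the 5 genes not above background on all 8 arrays. Scn2b is at the top with a mean of 5.03, the MS and Control points overlap in every tested gene, and Cacng5 spreads from -2.32 to 1.22.

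MS was compared with Control by limma across 34098 probes. After Benjamini-Hochberg adjustment, 0 of the 36 tested channel genes were called, as were 0 of all 23464 tested genes (0.0%), and every adjusted p rounded to 1.0. Without adjustment, limma gave a p under 0.05 for 0 of these members, where all tested genes gave 1.93% (1.07% lower in MS and 0.865% higher). The smallest p belonged to Cacnb2. The groups did not overlap for 0 of the 36 members, beside 0.524% of all tested genes that were lower and 0.801% that were higher in every MS mouse. The p-values measure the spread between these mice. The number before the point of the label is shared by 3 Control and by 3 MS mice, and the sources used here do not say what it marks. Mice that share it may not be independent.

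The members lay close to all tested genes in their differences. The log2 fold change was above 0 for 21 members and below 0 for 15, with a median of 0.03, and the median over all tested genes was 0.01 with 54.5% above 0. Without Control 8.4 the split was 19 to 17, with a median of 0.01, and 10 members changed sign. The median SE of a member was 0.136 log2, slightly above that of all tested genes (0.114). The 95% confidence interval stayed within ±0.5 log2 for 25 of the 36 members (69.4%), where all tested genes gave 75.6%. It stayed within a 2-fold change in either direction for 34 members, and the exceptions were Cacng5 and Cacna1s. The plot of fold changes shows which members these data bound closely and which they do not.

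**Figure D2:**
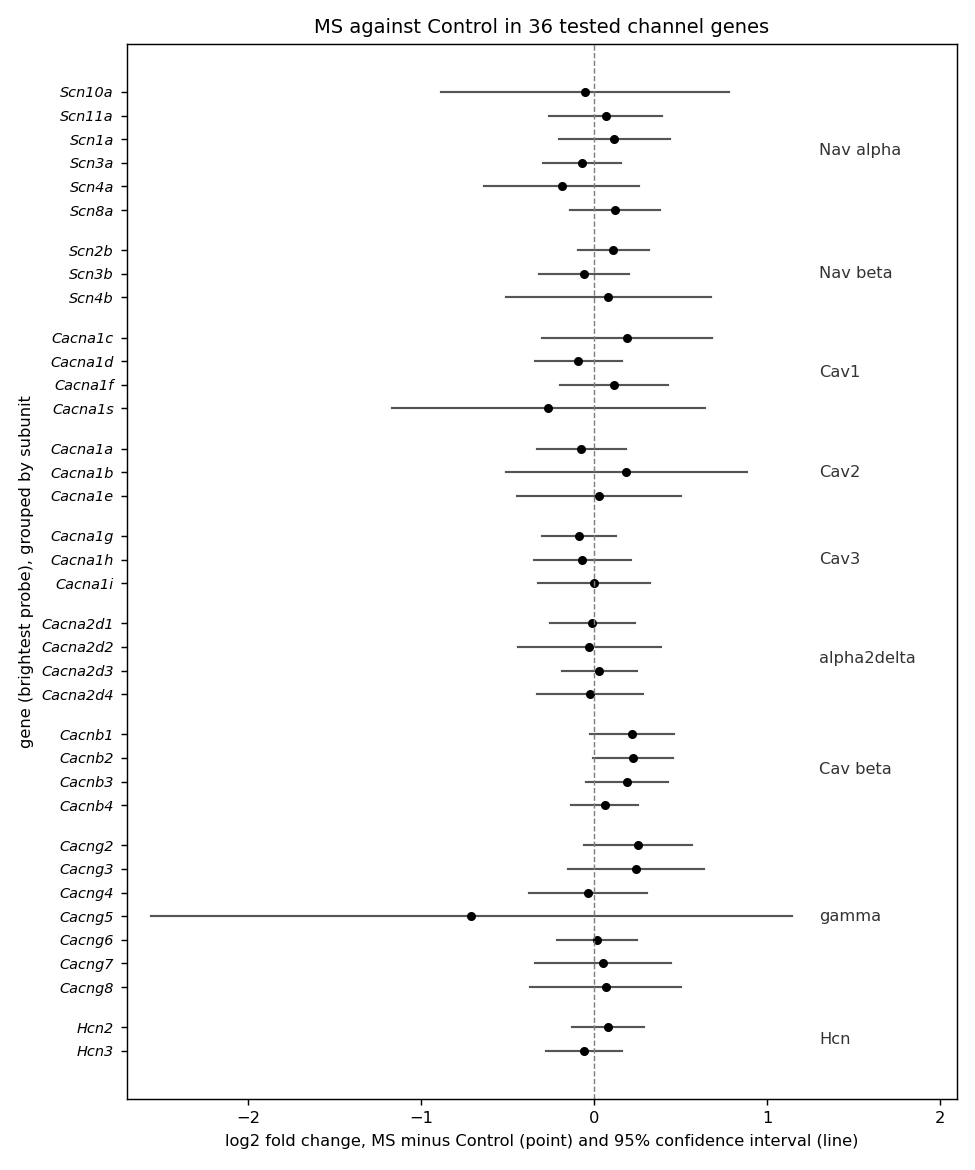
Log2 fold change of MS minus Control (point) with its 95% confidence interval from limma (line) for the 36 tested channel genes, grouped by subunit class. Every interval includes 0, and that of Cacng5 (-2.56 to 1.14) is the widest.

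None of the HCN genes described was called. Hcn2, a slow subunit that responds strongly to cAMP, read 4.55, 4.34, 4.22 and 4.51 in Control 6.2, 8.2, 8.4 and 8.5, and 4.44, 4.49, 4.45 and 4.56 in MS 5.3, 7.1, 7.2 and 7.6. The MS values lay inside the Control range but for MS 7.6, which was above it by little, and the fold change was 0.08 (95% confidence interval -0.13 to 0.29). Without Control 8.4, the lowest mouse, it was 0.02, and it was 0.01 without the 3 mice of high olfactory bulb score. The second Hcn2 probe, at a mean signal of 2.73, gave 0.06. Hcn3 had a fold change of -0.06 (95% confidence interval -0.28 to 0.16), or -0.02 without Control 8.4, and Hcn4, the pacemaker subunit of heart and thalamus, was at background.

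Calcium channel beta subunits, which bind the pore from inside the cell and are needed for its delivery to the membrane, had positive fold changes in 4 of 4 genes, with a median of 0.20. None passed the test. Cacnb2 read -1.08, -1.0, -1.02 and -1.37 in Control 6.2, 8.2, 8.4 and 8.5, and -1.02, -0.90, -0.82 and -0.82 in MS 5.3, 7.1, 7.2 and 7.6. Only MS 5.3 fell inside the Control range, and the fold change was 0.23 (95% confidence interval -0.01 to 0.46). It was above 0 in all 19 alternatives, but no filter on dim probes, a variance trend and slide row as a block cannot change it. The values ran from 0.11 with the mean over the tested probes of a gene to 0.27 without MS 5.3. The fold change was 0.14 without Control 8.5 and 0.13 without the 3 mice of high olfactory bulb score. Its adjusted p by limma was 1.0, and lay between 0.421 and 1.0 over the alternative settings. Its second tested probe, a dimmer one at a Control mean of -2.98, gave -0.01.

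Cacnb1 was 0.27, 0.17, -0.14 and 0.20 in Control 6.2, 8.2, 8.4 and 8.5, and 0.24, 0.44, 0.43 and 0.26 in MS 5.3, 7.1, 7.2 and 7.6. Control 8.4 was the lowest, MS 7.1 and 7.2 were above every Control mouse, and the fold change was 0.22. Cacnb3 gave 0.19, with Control 8.4 again the lowest at 3.20. Cacnb4, the beta subunit mutated in lethargic mice, was 2.78, 2.79, 2.56 and 2.69 in the Control mice and 2.86, 2.66, 2.83 and 2.73 in the MS mice, in the same orders. These values overlapped nearly fully, with a fold change of 0.06. Without Control 8.4 the fold changes were 0.13 for Cacnb1, 0.26 for Cacnb2, 0.10 for Cacnb3 and 0.01 for Cacnb4. Without the 3 mice of high bulb score that of Cacnb4 was -0.004, so the count of 4 above 0 does not hold there. The cortical excitatory marker list was also lowest in Control 8.4. Its summed signal (the sum of linear values relative to the 75th percentile) was 38.5 to 49.96 in Control and 47.9 to 51.0 in MS mice. Slc17a7, Neurod6, Emx1 and Nrn1 were lowest in Control 8.4. Tbr1 went the other way, at 4.32 there and 4.02 to 4.24 in the other Control mice. The part of this list in these differences was not tested.

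**Figure D3:**
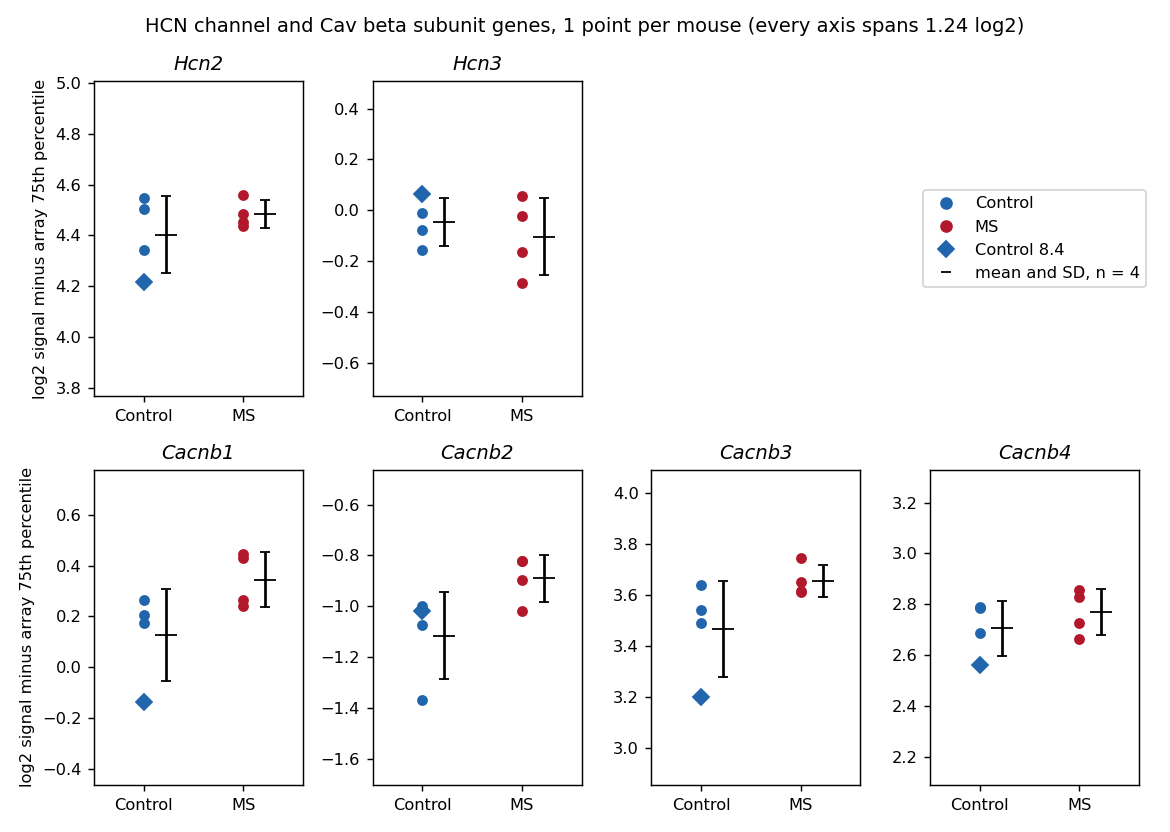
Signal (log2, relative to the array's 75th percentile, y axis) of the Hcn2, Hcn3 and Cacnb1 to Cacnb4 probes in each Control (blue) and MS (red) mouse, with the mean and SD of 4 mice in black, Control 8.4 as a diamond, and axes of equal length. The groups overlap in all 6 genes, and Control 8.4 is the lowest point of Hcn2, Cacnb1, Cacnb3 and Cacnb4.

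None of the 6 tested sodium channel alpha subunit genes was called: 3 had positive fold changes, with a median of 0.01, and each interval included 0. Scn1a, a subunit on which fast-spiking interneurons depend, read 2.77, 2.70, 2.39 and 3.01 in Control 6.2, 8.2, 8.4 and 8.5, and 2.94, 2.97, 2.81 and 2.62 in MS 5.3, 7.1, 7.2 and 7.6. All 4 MS values lay within the Control range, and the fold change was 0.12 (95% confidence interval -0.20 to 0.44). It was 0.007 without Control 8.4, the lowest mouse, and 0.22 without Control 8.5, the highest. A second Scn1a probe, dimmer at a Control mean of -1.54, gave 0.31.

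Scn8a, a subunit concentrated at the axon initial segment, was 1.37, 1.75, 1.40 and 1.29 in the Control mice and 1.52, 1.72, 1.45 and 1.61 in the MS mice, in the same orders. The highest value was that of Control 8.2, and the MS values lay within the Control range. The fold change was 0.12, or 0.00031 without the 3 mice of high bulb score, and the dimmer Scn8a probes gave 0.32 and 0.22, with intervals that included 0. Scn3a, a subunit most abundant before birth, read 2.04, 2.19, 2.32 and 2.19 in the Control and 2.28, 1.93, 2.17 and 2.09 in the MS mice. Its MS and Control values overlapped, and its 5 probes gave fold changes from -0.13 to 0.18.

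The alpha subunits known from other tissues were dim. Scn11a, of sensory neurons, had a mean signal of -1.64 and a fold change of 0.07, which became -0.07 without Control 8.4, its lowest mouse. Scn4a, of skeletal muscle, read -2.89, -2.22, -3.15 and -3.17 in Control 6.2, 8.2, 8.4 and 8.5, and -2.98, -3.13, -3.03 and -3.03 in MS 5.3, 7.1, 7.2 and 7.6. Control 8.2 alone was high, and the fold change of -0.19 became 0.03 without that mouse. The skeletal muscle markers Ckm, Mylpf and Tnnt3 were not above background on all arrays, and the 2 tested genes of the list summed to 0.850 to 1.28 in Control and 1.15 to 1.32 in MS mice. Scn10a read -5.50, -5.03, -4.52 and -5.24 in the Control and -6.22, -4.64, -4.57 and -5.06 in the MS mice, in the same orders. Those values span the limit of detection, and the sign of its fold change (-0.05, 95% confidence interval -0.88 to 0.78) turned with the normalization.

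Of the 3 sodium channel beta subunit genes, 2 had fold changes above 0, with a median of 0.08. Scn4b, a beta subunit tied to the resurgent sodium current and rich in the striatum, read 0.70, 0.84, 1.87 and 0.81 in Control 6.2, 8.2, 8.4 and 8.5, and 0.81, 1.31, 1.38 and 1.04 in MS 5.3, 7.1, 7.2 and 7.6. Control 8.4 was the highest mouse, and the other Control mice were at or near the bottom of the MS range. The fold change was 0.08 with all mice (95% confidence interval -0.51 to 0.67), and 0.36 without Control 8.4. Striatal projection neuron markers were high along with Scn4b in that mouse only. Of these, 8 of 10 were above background on all arrays (Drd2 and Isl1 were not). The list summed to 80.6 in Control 8.4, where the other Control mice had 23.7 to 29.0 and the MS mice 25.0 to 31.6. MS 7.2 and MS 7.1, the next highest in Scn4b, had striatal scores of -0.34 and -0.12. The part of striatal markers in the Scn4b values was not tested. Scn2b and Scn3b had fold changes of 0.11 and -0.06, and of 0.05 and -0.08 without Control 8.4. That of Scn3b was 0.07 without the 3 mice of high bulb score.

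None of the 10 pore-forming calcium channel genes was called. The median fold change was 0.01 for the 4 Cav1 genes, 0.03 for the 3 Cav2 genes and -0.07 for the 3 Cav3 genes, and each interval included 0. Cacna1c, the main L-type pore of neurons and heart, read -4.20, -5.05, -4.34 and -4.03 in Control 6.2, 8.2, 8.4 and 8.5, and -4.28, -3.90, -4.44 and -4.24 in MS 5.3, 7.1, 7.2 and 7.6. Control 8.2 was the lowest, and the fold change of 0.19 became -0.02 without it. Cacna1d, the other neuronal L-type pore, gave -0.09, or -0.01 without Control 8.4, and its second probe gave 0.08.

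Cacna1a, the P/Q-type pore of fast transmitter release, read 2.59, 2.61, 2.34 and 2.55 in the Control mice and 2.71, 2.25, 2.41 and 2.43 in the MS mice, in the same orders. The MS mice held both the highest and the lowest value, and the fold change was -0.07 (95% confidence interval -0.33 to 0.18), or -0.13 without Control 8.4. Cacna1b, the N-type pore, read -3.69, -4.26, -4.95 and -3.66 in the Control and -4.07, -3.46, -3.88 and -4.40 in the MS mice. Its values spread over 1.49 log2, with Control 8.4 the lowest, and its fold change of 0.19 became -0.08 without that mouse. Cacna1e, the R-type pore, gave 0.03, and -0.08 without Control 8.4.

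The T-type pores, which open near rest and favour burst firing, were Cacna1g, Cacna1h and Cacna1i. Cacna1g read 2.45, 2.33, 2.48 and 2.39 in Control 6.2, 8.2, 8.4 and 8.5, and 2.55, 2.20, 2.24 and 2.31 in MS 5.3, 7.1, 7.2 and 7.6. MS 5.3 was above and the other 3 MS mice were below every Control mouse. Its fold change was -0.08 (95% confidence interval -0.30 to 0.13), and its second probe, of nearly the same brightness, also gave -0.08. Cacna1i had a fold change of 0.00045 and an interval from -0.32 to 0.32, and was at 0.10 without Control 8.4.

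Cacna1h read 2.28, 2.40, 2.64 and 2.72 in Control 6.2, 8.2, 8.4 and 8.5, and 2.34, 2.68, 2.39 and 2.37 in MS 5.3, 7.1, 7.2 and 7.6. MS 7.1 stood above the other MS mice, and the fold change was -0.07. It was -0.02 without Control 8.4 and 0.13 without the 3 mice of high bulb score. The 3 Cacna1h probes gave -0.07, -0.22 and 0.10. The probe at -0.22 (A_52_P588378, at a Control mean of -2.83) had an unadjusted p of 0.047 by limma and an adjusted p of 1.0. It was the 1 probe under 0.05 among the 55 tested channel probes. Of all tested genes, 1.93% had such a p at their brightest tested probe, so this count says nothing particular to the channel probes.

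The alpha2delta genes, of which Cacna2d1 and Cacna2d2 bind the gabapentinoid drugs, had fold changes between -0.03 and 0.03, each with an interval within ±0.5 log2. Without Control 8.4 they were 0.04 for Cacna2d1, -0.04 for Cacna2d2, -0.03 for Cacna2d3 and -0.12 for Cacna2d4. Cacna2d1 read 3.80, 3.71, 3.88 and 3.53 in Control 6.2, 8.2, 8.4 and 8.5, and 3.84, 3.71, 3.83 and 3.51 in MS 5.3, 7.1, 7.2 and 7.6. The groups covered almost the same range. Cacna2d2 read 1.72, 1.47, 1.73 and 2.1 in the Control and 2.05, 1.91, 1.62 and 1.33 in the MS mice, in the same orders, again over nearly the same range. Without the 3 mice of high bulb score its fold change was 0.26. Its second probe gave -0.28 at a Control mean of -3.41.

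Of the 7 tested Cacng genes, 5 had fold changes above 0, with a median of 0.05. Cacng2, the TARP stargazin, read 2.22, 2.33, 1.72 and 2.30 in Control 6.2, 8.2, 8.4 and 8.5, and 2.46, 2.43, 2.29 and 2.41 in MS 5.3, 7.1, 7.2 and 7.6. MS 7.2 was within the Control range and the other 3 MS mice were above it. The fold change was 0.25 (95% confidence interval -0.06 to 0.57), and 0.11 without Control 8.4. Without the 3 mice of high bulb score it was 0.12. Cacng3, another TARP of cortex, gave 0.24 in all mice, 0.07 without Control 8.4 and -0.003 without those 3 mice. The TARP genes Cacng4, Cacng7 and Cacng8 had fold changes of -0.03, 0.05 and 0.07, and of -0.13, 0.09 and -0.04 without Control 8.4.

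Cacng5, a TARP of the second type, had the widest spread of any tested channel gene. It read -2.07, -2.30, 1.22 and -0.62 in Control 6.2, 8.2, 8.4 and 8.5, and -2.32, -2.17, -2.09 and -0.01 in MS 5.3, 7.1, 7.2 and 7.6. Control 8.4, MS 7.6 and Control 8.5 were high in this order, and the other 5 mice lay close together. The fold change was -0.71 (95% confidence interval -2.56 to 1.14), 0.01 without Control 8.4 and -0.01 without all 3 high mice. Cacna1s, the L-type pore known from skeletal muscle, followed the same order of the high mice, with -2.06, -1.87, -0.32 and -1.21 in the Control and -2.18, -1.64, -1.78 and -0.92 in the MS mice. Its fold change of -0.26 (95% confidence interval -1.17 to 0.64) was 0.10 without those 3 mice. In the second Cacna1s probe, Control 8.4 was also the highest (-3.66), followed by MS 7.6 (-4.38), but Control 6.2 (-4.39) was just above Control 8.5 (-4.45).

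The olfactory bulb and anterior olfactory markers (Tbx21, Sp8, Trh, Th, Eomes, Cdhr1 and Doc2g) had the same 3 mice at the top in the same order. Of these, 6 of 7 were above background on all 8 arrays, and Eomes was above it on 4. The list summed to 2.06 to 41.1 in Control and 2.23 to 16.7 in MS mice. The plot by mouse sets Cacng5 and Cacna1s beside this score. The part of olfactory tissue in the Cacng5 and Cacna1s values was not tested.

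**Figure D4:**
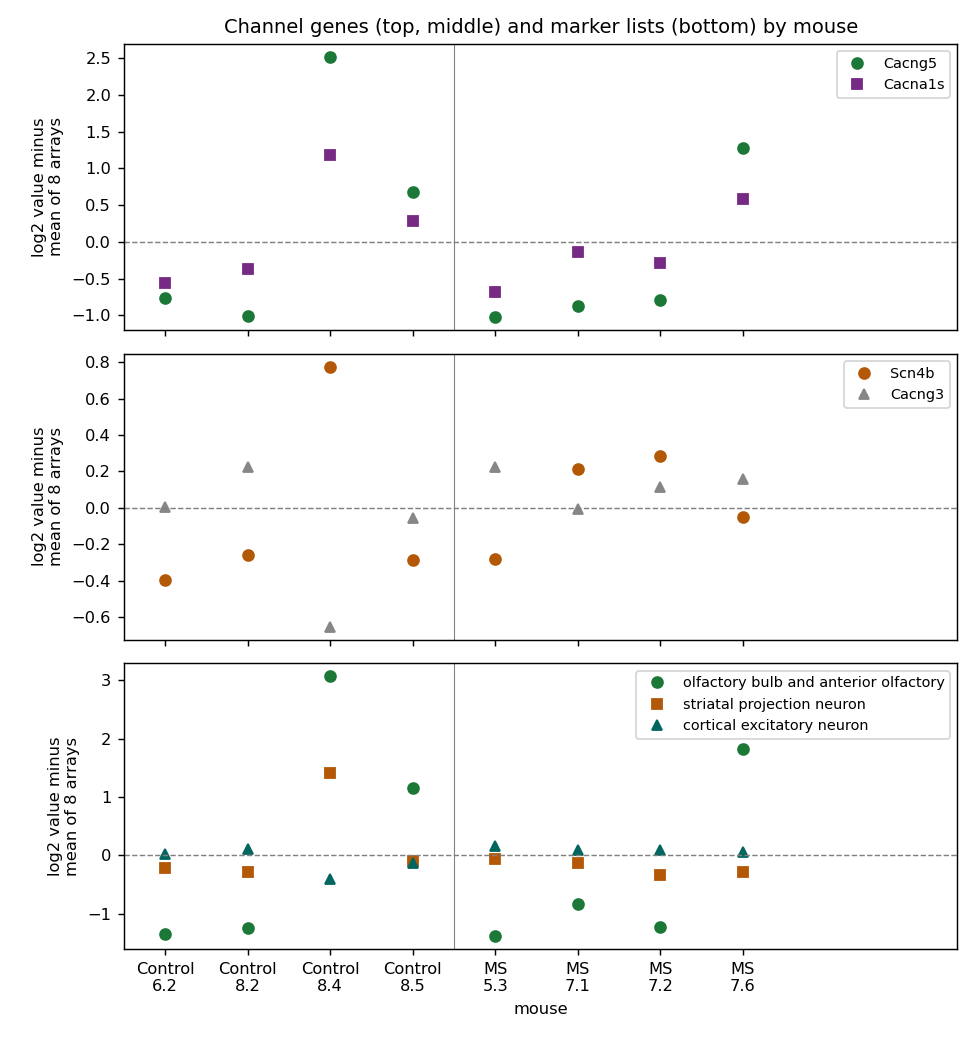
Values for each mouse (x axis) as log2 difference from the mean of the 8 arrays (y axis): Cacng5 and Cacna1s (top), Scn4b and Cacng3 (middle) and the mean score of the olfactory bulb, striatal and cortical excitatory marker lists (bottom). Control 8.4, MS 7.6 and Control 8.5 are the highest mice in both genes of the top panel and in the bulb score (3.07, 1.82 and 1.15), and Control 8.4 is highest in Scn4b and lowest in Cacng3.

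Different probes of a gene often disagreed in brightness. Of the 16 channel genes with several probes, the brightest and dimmest probe differed by 0.13 log2 for Cacna1g and by 9.41 for Cacng2, with a median of 4.04, and in 8 genes by more than 4. The Cacng2 probes start 110 bases apart. The brighter one, with a GC content of 45%, was well above background in all mice. The dimmer one, with a GC content of 20%, was not above background in all mice of either group. Over the 62 channel probes the GC content ran from 20% to 81.7%, the latter for the bright Hcn2 probe. The signs of the fold changes were the same for all tested probes in 8 of the 14 genes with several tested probes. Where they were not, as for Cacna1h, Scn3a and Cacnb2, the brightest probe is the one reported above.

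**Figure D5:**
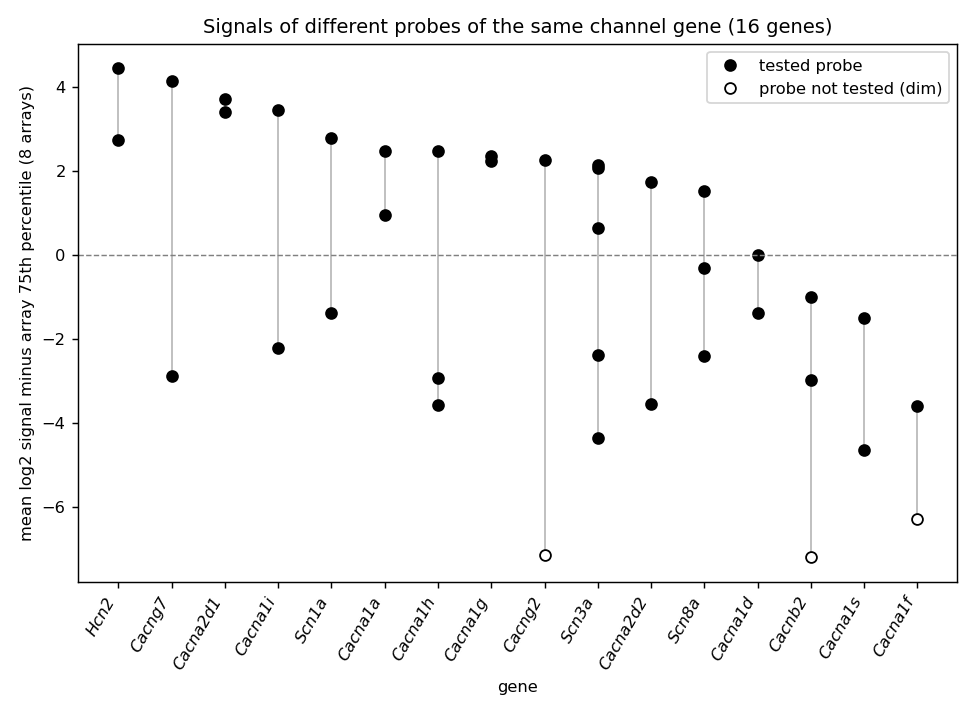
Mean signal over 8 arrays (log2, relative to the array's 75th percentile, y axis) of every probe of the 16 channel genes with several probes (x axis), with filled points for tested and open points for untested probes and a line joining probes of a gene. The probes of Cacna1g lie 0.13 apart and those of Cacng2 9.41 apart.

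A further list held 48 symbols of genes tied to these channels, with older and newer names of a gene among them, and 44 were tested. It took in calcium sensors, scaffolds of the axon initial segment, fibroblast growth factor homologous factors, and regulators of calcium and HCN channels. It also held the channel genes Scn2a1 and Nalcn and AMPA receptor partners such as Cnih2. Fold changes of the 44 were above 0 for 23 and below 0 for 21, with a median of 0.006. None was called, 1 had an unadjusted p under 0.05 (1.93% of all tested genes), and in 2 of the 44 the groups did not overlap (1.33% of all tested genes). Cabp1, a calcium sensor that binds Cav1 and Cav2 pores, read 2.59, 2.70, 2.16 and 2.59 in Control 6.2, 8.2, 8.4 and 8.5, and 2.74, 2.92, 2.91 and 2.81 in MS 5.3, 7.1, 7.2 and 7.6. Every MS mouse was above every Control mouse, with a fold change of 0.34 (95% confidence interval 0.06 to 0.61) and of 0.22 without Control 8.4. The other was Calm2, a calmodulin gene, where the difference was 0.13, or 0.07 without Control 8.4.

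Stac, an adaptor of L-type channels, had the largest difference of the list, at -0.90, and it was -0.56 without Control 8.4, the mouse of its highest value (-1.33). Nalcn, the sodium leak channel, gave -0.29, or -0.36 without Control 8.4. Pex5l, the gene of the HCN accessory protein TRIP8b, gave 0.11 with an interval from -0.35 to 0.56, and -0.05 without that mouse. Ank3, the ankyrin that anchors sodium channels at the axon initial segment, gave -0.004 with an interval from -0.21 to 0.20. It gave 0.06 without Control 8.4. These values bound the differences in Ank3 more closely than those in Pex5l.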

How the data were processed

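Groups came from the labels (4 Control and 4 MS mPFC samples, 1 array each). Per the labels, 200 ng of total RNA was labelled with Cy3 for 1-colour Agilent arrays. The deposited scanner files hold spot intensity from Agilent Feature Extraction 10.10.1.1, from which that software had subtracted background, with no scaling across arrays. A series table deposited by the authors holds log2 values that they normalised, and was an alternative.

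Of 62976 spots per array, 3671 control spots and outlier spots (0.255% to 0.304% of the rest) were left out, and spots of a probe were averaged after log2 and subtraction of the array's 75th percentile. A probe was tested if all 4 arrays of either group had it well above background (34098 of 55681), with limma 3.58.1 in R 4.3.3 (lmFit and eBayes, two-sided, Benjamini-Hochberg, threshold 0.05), as in the methods of the study, which name no covariate. Duplicate correlation used statmod 1.5.0, and figures matplotlib 3.10.9. The brightest tested probe stood for a gene in the background shares. The procedure was tested on simulated data. All 8 arrays sat on 1 slide. The 40 symbols were all found in the RefSeq table of GRCm38.p6, and 54 of the 62 accessions matched, all 54 to the same symbol.

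Named genes are those with non-overlapping groups, the 3 higher and 3 lower of smallest p, the 4 of widest range, a panel of 10, and the 3 whose probes differed most. The members and lists were chosen with earlier results of these data known. Of the 43 genes that the naming rule takes, 3 are not reported here, nor is 1 marker gene.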

Additional observations from a re-analysis of the deposited data

Results flagged for a closer look

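In each group of 4 mice, the gap between an extreme mouse and its nearest neighbour was set against the whole range of the group, for the 36 tested channel genes. Of 72 such groups, 3 held a mouse that stood apart, and chance flags about 1 in 20 groups. Cacng5 in MS 7.6 was -0.015 where the next MS mouse had -2.09. Scn4b in Control 8.4 was 1.87, above the next at 0.84. Cacna1h in MS 7.1 was 2.675, above the next at 2.39. Control 8.4 accounts for 1 of the 3.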

How the results depend on the processing

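The number of probes and of channel genes called was 0 under all 19 alternatives, and the median fold change of the channel genes moved by less than 1 SD between mice. Of 380 fold changes of named genes under these alternatives, 347 kept their sign and 33 did not, and none of the 380 passed the adjusted threshold. Some signs could not turn: no filter on dim probes, a variance trend and slide row as a block leave the fold change unchanged. The mean over tested probes also leaves it unchanged for genes with 1 tested probe. The channel genes at an unadjusted p under 0.05 numbered 0 as reported, 1 with normexp background correction and with the slide row as a block (Cacnb2), and 4 with the number before the point of the animal label as a random block (Cacnb1, Cacnb2, Cacnb3 and Cacng2). Under that block 9.85% of all tested genes had such a p, against 1.93% as reported, so the 4 of 36 say nothing particular to the members. That block had a consensus correlation of -0.22, each number lay in 1 group, and the cause of the higher count was not tested. With 1 mouse left out the count lay between 0 and 2, at 1 without MS 5.3 (Cacnb2) and without Control 8.5 (Cacnb3). At 2 it was without Control 8.2 (Cacnb2 and Scn8a) and without Control 8.4 (Cacnb2 and Scn4b). Of all tested genes, 2.82% had such a p without MS 5.3, 1.91% without Control 8.5, 4.06% without Control 8.2 and 1.61% without Control 8.4. The share was 1.04% with normexp and 2.11% with the slide row as a block. Counts of 1 or 2 members say nothing particular to the members.

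Signs turned for Scn10a with quantile normalization (0.0025), normexp (0.063), the authors' log2 values (0.0375) and the random block (0.034). Within slide row 1 they turned for Cacna1b (-0.092), Cacna1h (0.0064), Cacna2d1 (0.108), Cacna2d2 (0.068) and Hcn2 (-0.065), and within slide row 2 for Scn4b (-0.142) and Scn8a (-0.043), each with 2 mice a group. Leaving out Control 8.4, Control 8.5 and MS 7.6, an alternative chosen after seeing the data, turned Cacna1h (0.126), Cacna1s (0.098), Cacna2d1 (0.036), Cacna2d2 (0.261), Cacnb4 (-0.0040), Scn10a (0.120) and Scn3a (0.012).

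Leaving out 1 mouse turned 10 named genes. Without Control 8.4 the values were -0.084 for Cacna1b, 0.085 for Cacna1s, 0.041 for Cacna2d1, 0.013 for Cacng5 and 0.133 for Scn10a. Without Control 8.2 they were -0.023 for Cacna1c and 0.025 for Scn4a, without Control 6.2 0.016 for Cacna2d1 and -0.035 for Scn4b, and without Control 8.5 0.0025 for Cacna1h and 0.087 for Cacna2d2. Without MS 5.3 Scn10a was at 0.316, without MS 7.2 Cacna2d2 was at 0.0084, and without MS 7.6 Cacna2d1 was at 0.062 and Cacna2d2 at 0.103. No paired analysis was possible because the groups share no replicate number. A signal near background limits Scn7a and Scn10a, and gives no comparison for Cacng1, Hcn4 and Scn9a. Cacna1b and Cacna1c were above background on every array but also dim. Cacna1b in Control 8.4 (-4.95) and Cacna1c in Control 8.2 (-5.05) were near the mean signal of Scn10a (-5.10). Each had a fold change of 0.19, which turned without its dim mouse, to -0.084 and -0.023.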
